A study of Mus musculus with 12 samples.

Results

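The genes described here are 9 components of Nodal and Lefty signalling: the ligand genes *Nodal* and *Gdf3*, the co-receptor gene *Tdgf1*, the receptor genes *Acvr1b* and *Acvr2b*, the intracellular transducer gene *Smad2*, the DNA-binding partner gene *Foxh1*, and the feedback inhibitor genes *Lefty1* and *Lefty2*. They were taken by gene symbol from a table of 42450 genes, all 9 were found, and all 9 were among the 19410 genes with enough counts to be tested. PolyA+ RNA was measured in E14tg2a.4 cells, a clonal mouse embryonic stem cell (ESC) line, which was expanded on gelatine in medium with serum and leukaemia inhibitory factor (LIF) and kept in serum-free medium with LIF for the 24 h or 72 h before collection. The cells received 50 nM siRNA against *Srrm2*, a splicing factor gene (Srrm2-KD), or against firefly luciferase, which mouse cells lack (Gl2-KD), and were collected at 24 h or 72 h. Each of the 4 groups had 3 libraries, 1 from each of 3 experiments, and the 72 h cultures were transfected again with the same siRNA 24 h after the first time. No allele was changed in any group, and the control cells were transfected as well.

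Nodal is a secreted factor of the TGF-beta family. It binds type I and type II activin receptors together with the co-receptor Cripto, which *Tdgf1* encodes, and the receptors phosphorylate SMAD2 and SMAD3, which enter the nucleus with SMAD4 and act on genes with partners such as FOXH1. *Nodal*, *Lefty1* and *Lefty2* are themselves targets of this pathway, and the secreted Lefty proteins block Nodal signalling, so that ligand and inhibitor form a feedback loop. In the embryo the pathway directs mesendoderm formation and left-right asymmetry, and mouse ESC keep it active in culture.

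The libraries held 73933196 to 153343831 estimated counts. Levels are given as CPM, counts scaled by TMM to a common library size, and differences as log2 fold changes from edgeR. Their standard error (SE) was computed here as the size of the log2 fold change over the root of the edgeR F statistic. The 95% intervals were built from this SE. *Srrm2* lay at 442 to 962 CPM in Gl2-KD and at 154 to 517 CPM in Srrm2-KD and was lower in Srrm2-KD in all 6 pairs of libraries from the same experiment and time point. The Srrm2-KD libraries of experiment 1 (461 and 517 CPM) still lay above the lowest Gl2-KD library (442 CPM). The log2 difference of *Srrm2* was -1.22 (SE 0.14, adjusted p = 0.0663 by edgeR) at 24 h and -1.16 (SE 0.14, adjusted p = 0.0991 by edgeR) at 72 h, so the siRNA target itself was not called in this fit, while DESeq2 (adjusted p = 5.03e-11 and 1.72e-09) and limma-voom (adjusted p = 0.0277 and 0.0218) called it at both times. Over all genes, principal component 1 carried 42.0% of the variance and set experiment 1 apart from experiments 2 and 3. The ESC genes *Pou5f1*, *Sox2*, *Nanog*, *Klf4*, *Esrrb* and *Zfp42* were present in every library, with lows of 62.4 CPM for *Klf4* and highs of 1956 CPM for *Pou5f1*. Of 24 markers of endoderm, trophectoderm, mesendoderm, neural cells and fibroblasts, 19 stayed below 2 CPM in all libraries. The others were *Tfap2c* (45.6 to 94.98 CPM), *Pax6* (6.89 to 34.6), *Thy1* (3.58 to 22.9), *Krt7* (1.06 to 18.6) and *Eomes* (1.96 to 5.79), and their part in the results below was not tested. In bulk RNA, fewer cells of a type and less RNA per cell cannot be told apart.

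All 9 genes were expressed in all 12 libraries, and their levels differed widely. Per kilobase of annotated exons, the mean level over the 12 libraries was highest for *Tdgf1*, at 302 CPM per kb (209 to 401). *Lefty1* (49.5 CPM per kb), *Lefty2* (43.8), *Gdf3* (42.3), *Foxh1* (34.3) and *Nodal* (23.1) followed. The ranges of these 5 genes overlapped from each to the next. *Gdf3* (27.9 to 54.9 CPM per kb) lay above *Nodal* (16.7 to 26.9) without overlap. For the other pairs of these genes the order is not beyond the spread between libraries. The receptor gene *Acvr1b* and the transducer gene *Smad2* were lower, at 7.71 and 6.88 CPM per kb, again with overlapping ranges. *Acvr2b*, which encodes a type II receptor, was lowest, with 0.529 CPM per kb (0.197 to 1.17) and 66 to 604 counts per library, below the range of every other gene of the group.

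**Figure D1:**
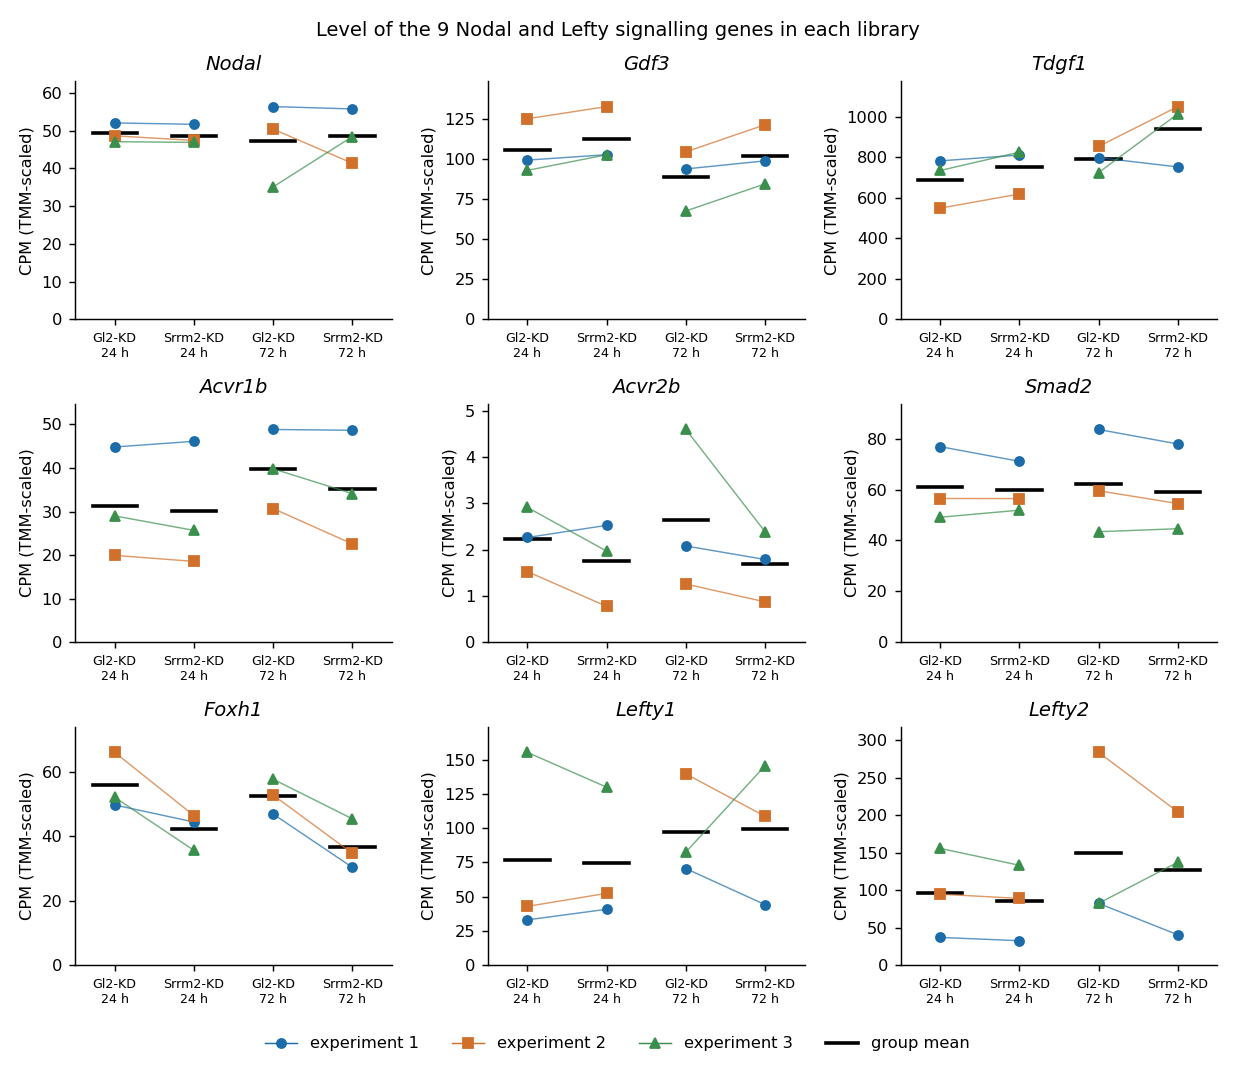
Level of each of the 9 genes (y axis, TMM-scaled CPM on a linear scale from 0) in the 4 groups (x axis). Points are single libraries, coloured by experiment, thin lines join the Gl2-KD and Srrm2-KD libraries of the same experiment and time point, and black bars are the means of 3 libraries. *Foxh1* is the gene whose Srrm2-KD points all lie below its Gl2-KD points, while the *Smad2* points separate by experiment and those of *Acvr1b* are highest in experiment 1.

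Between Srrm2-KD and Gl2-KD, *Foxh1* had the smallest p of the 9 genes at both times. It was lower in every Srrm2-KD library than in any Gl2-KD library of the same time, and it did not pass the test. In the quasi-likelihood test of edgeR, adjusted by Benjamini-Hochberg over 19410 genes, 0 of the 9 genes were called at 24 h and 0 at 72 h, where 0% of all genes tested were called at either time. At an unadjusted p below 0.05 the count was 1 of 9 at 24 h (2.62% of all genes) and 1 of 9 at 72 h (12.9% of all genes), and both times the gene was *Foxh1*. DESeq2 called 0 of the 9 at both times. It called 0.129% of the genes to which it gave an adjusted p at 24 h and 3.38% at 72 h. These were 19410 genes at 24 h and 16023 at 72 h. By limma-voom 0 of 9 were called, against 0.0103% and 0.0206% of all genes. The median log2 difference of the 9 genes was -0.02 at 24 h and -0.20 at 72 h, against 0.01 and -0.02 over all genes. The difference between the 72 h and the 24 h effect of the siRNA ranged from -0.25 to 0.12 on the log2 scale for the 9 genes. Here 0 of 9 genes and 0% of all genes were called, and at an unadjusted p below 0.05 the counts were 0 of 9 and 1.64% of all genes. DESeq2 and limma-voom called 0 of 9 for it too, and 0.0103% and 0% of all genes.

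Between 72 h and 24 h, the largest differences of the 9 genes were those of *Lefty1* and *Lefty2*, and in Gl2-KD the experiments went in different directions for both. In Gl2-KD 0 of the 9 genes were called, where 1.45% of all genes were, and 2 of 9 had an unadjusted p below 0.05 (16.8% of all genes), namely *Acvr1b* and *Gdf3*. In Srrm2-KD 0 of 9 were called, against 0.551% of all genes, and 0 of 9 had an unadjusted p below 0.05, against 16.3% of all genes. DESeq2 called 1 of 9 in Gl2-KD (*Acvr1b*) and 0 in Srrm2-KD, against 8.16% and 6.62% of the genes to which it gave an adjusted p. By limma-voom 0 of 9 were called in both, against 2.48% and 1.33% of all genes. Without the experiment as a block, edgeR called 0 genes of all in either time comparison, with 744 and 663 at an unadjusted p below 0.05. The median log2 difference of the 9 genes was 0.11 in Gl2-KD and -0.01 in Srrm2-KD, against 0.02 and 0.00 over all genes. The siRNA and time comparisons share libraries, so the values of a gene in them are not independent of each other.

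**Figure D2:**
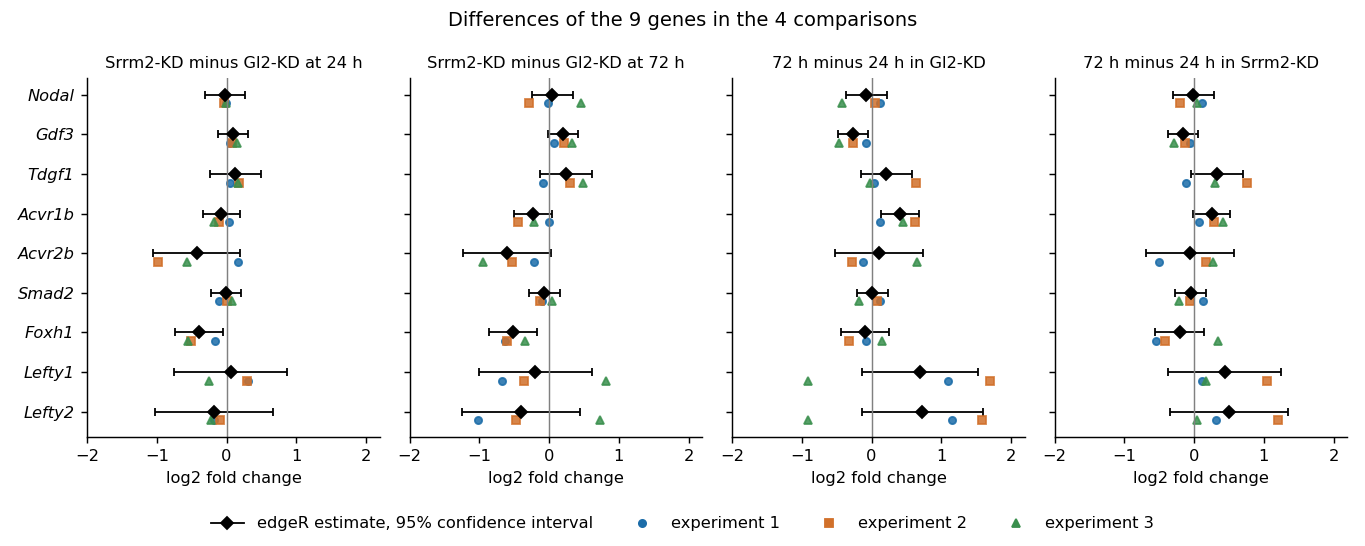
Log2 fold change (x axis) of the 9 genes (y axis) in the 4 comparisons. Black diamonds are edgeR estimates with 95% confidence intervals, and coloured symbols below them are the differences within each experiment. For the siRNA the intervals of *Foxh1* lie below 0 at 24 h (-0.74 to -0.05) and at 72 h (-0.86 to -0.17). Over time in Gl2-KD the interval of *Gdf3* (-0.48 to -0.05) lies below 0 and that of *Acvr1b* (0.14 to 0.68) above it. None of these differences was called by edgeR. The widest intervals are those of *Lefty1* and *Lefty2*.

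*Nodal* encodes the ligand that gives the pathway its name. In Gl2-KD at 24 h its level in experiments 1, 2 and 3 was 52.0, 48.6 and 47.1 CPM, and in Srrm2-KD it was 51.7, 47.4 and 46.9 CPM. The 72 h levels were 56.4, 50.4 and 35.1 CPM in Gl2-KD and 55.7, 41.3 and 48.4 CPM in Srrm2-KD. The paired libraries were almost level at 24 h, and at 72 h the experiments went in different directions. The log2 difference between the siRNAs was -0.02 (SE 0.13, 95% interval -0.31 to 0.27) at 24 h and 0.05 (SE 0.13, interval -0.24 to 0.34) at 72 h, and between the time points it was -0.07 in Gl2-KD and -0.01 in Srrm2-KD. *Nodal* varied least of the 9 genes, by 1.61-fold over 12 libraries, and was higher in all 4 libraries of experiment 1 (51.7 to 56.4 CPM) than in the other 8 (35.1 to 50.4 CPM). How many of all genes did so was not counted. The experiment held 47.1% of the variation of *Nodal*, below the median of 53.6% over all genes tested.

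*Gdf3* encodes a related ligand that acts through the same receptors and Cripto. Its level in experiments 1, 2 and 3 was 99.6, 125 and 93.1 CPM in Gl2-KD and 103, 133 and 103 CPM in Srrm2-KD at 24 h. At 72 h it was 94.0, 105 and 67.7 CPM in Gl2-KD and 99.1, 122 and 84.7 CPM in Srrm2-KD. All 6 pairs of the same experiment and time point were higher in Srrm2-KD, as for 7% of all genes, and all 6 pairs of the same experiment and siRNA were lower at 72 h, as for 7.96% of all genes. The groups overlapped throughout. The log2 difference over time was -0.26 (SE 0.10, adjusted p = 0.192 by edgeR) in Gl2-KD and -0.16 (SE 0.10, adjusted p = 0.461) in Srrm2-KD, and without experiment 1 it was -0.36 and -0.21. The siRNA differences were 0.09 (SE 0.10) at 24 h and 0.20 (SE 0.10, adjusted p = 0.418) at 72 h.

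*Tdgf1*, the gene of the co-receptor Cripto, was the most abundant of the 9. In experiments 1, 2 and 3 it stood at 782, 549 and 735 CPM in Gl2-KD and at 811, 618 and 825 CPM in Srrm2-KD at 24 h. By 72 h it stood at 798, 854 and 724 CPM in Gl2-KD and at 752, 1050.2 and 1014 CPM in Srrm2-KD. Experiment 2 was the lowest at 24 h and the highest at 72 h with either siRNA. The log2 difference between the siRNAs was 0.13 (SE 0.17) at 24 h and 0.24 (SE 0.17, adjusted p = 0.577 by edgeR) at 72 h. *Tdgf1* was higher in Srrm2-KD in 5 of 6 pairs. All 6 pairs were higher for 7% of all genes, and the share with 5 of 6 was not counted. The processed pseudogene *Tdgf1-ps1* shared 330 of the 2646 31-base words of the *Tdgf1* transcripts and was given 5.30% to 8.76% of the counts of both, with the highest shares in the 4 libraries of experiment 1 (7.94% to 8.76%). Adding its counts to *Tdgf1* left the log2 differences between the siRNAs at 0.12 and 0.25.

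*Acvr1b* encodes the type I receptor ALK4. At 24 h it lay at 44.8, 19.9 and 29.0 CPM in experiments 1, 2 and 3 of Gl2-KD and at 46.1, 18.5 and 25.7 CPM in those of Srrm2-KD. At 72 h it lay at 48.8, 30.7 and 39.8 CPM in Gl2-KD and at 48.6, 22.6 and 34.1 CPM in Srrm2-KD. All 6 pairs of the same experiment and siRNA were higher at 72 h, as for 8.92% of all genes, although the groups overlapped. The log2 difference was 0.41 (SE 0.12, adjusted p = 0.124 by edgeR) in Gl2-KD and 0.25 (SE 0.12, adjusted p = 0.345) in Srrm2-KD. DESeq2 called the difference in Gl2-KD (0.39, adjusted p = 0.0456), where it called 8.16% of the genes to which it gave an adjusted p. The experiments differed more than the time points, since experiment 1 lay at 44.8 to 48.8 CPM, experiment 3 at 25.7 to 39.8 CPM and experiment 2 at 18.5 to 30.7 CPM. Without experiment 1 the time differences were 0.54 (adjusted p = 0.0566 by edgeR) and 0.35.

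*Acvr2b*, a type II receptor gene, had the lowest level of the 9. In experiments 1, 2 and 3 it had 2.26, 1.53 and 2.91 CPM in Gl2-KD and 2.53, 0.773 and 1.97 CPM in Srrm2-KD at 24 h. The 72 h libraries had 2.08, 1.26 and 4.60 CPM in Gl2-KD and 1.79, 0.871 and 2.39 CPM in Srrm2-KD. It was lower in Srrm2-KD in 5 of 6 pairs with overlapping groups, and experiment 2 was lowest in each group. All 6 pairs were lower for 7.25% of all genes, and the share with 5 of 6 was not counted. The log2 difference between the siRNAs was -0.43 (SE 0.29) at 24 h and -0.60 (SE 0.29, 95% interval -1.23 to 0.03, adjusted p = 0.417 by edgeR) at 72 h. With single libraries left out it was -0.80 to -0.21 at 24 h and -0.84 to -0.29 at 72 h, and with single experiments left out -0.79 to -0.15 and -0.76 to -0.38.

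*Smad2* encodes a SMAD that the receptors phosphorylate, and its level followed the experiment. Experiment 1 lay at 71.1 to 83.6 CPM, experiment 2 at 54.5 to 59.5 CPM and experiment 3 at 43.4 to 51.9 CPM, with 4 libraries each and no overlap. How many of all genes separated in this way was not counted. The experiment held 92.9% of the variation of *Smad2*, against a median of 53.6% over all genes tested. Between the siRNAs the log2 difference was -0.01 (SE 0.10, 95% interval -0.23 to 0.21) at 24 h and -0.07 (SE 0.10, interval -0.29 to 0.15) at 72 h, and between the time points it was 0.01 and -0.05. The sign of the value in Gl2-KD over time turned with other scalings (-0.01 with RLE factors and -0.03 with library totals).

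*Foxh1* encodes the forkhead factor that brings SMAD2 to DNA. In experiments 1, 2 and 3 at 24 h it had 49.7, 66.0 and 52.1 CPM in Gl2-KD (mean 55.9 ± 8.82, SD, n = 3) and 44.4, 46.4 and 35.6 CPM in Srrm2-KD (mean 42.2 ± 5.74, SD, n = 3). At 72 h it had 46.9, 52.8 and 57.7 CPM in Gl2-KD (mean 52.5 ± 5.42, SD, n = 3) and 30.3, 34.7 and 45.4 CPM in Srrm2-KD (mean 36.8 ± 7.75, SD, n = 3). The groups did not overlap at either time, with all Srrm2-KD libraries below all Gl2-KD libraries, which held for 82 of 19410 genes (0.422%). All 6 pairs were lower in Srrm2-KD, as for 7.25% of all genes.

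The log2 difference of *Foxh1* was -0.40 (SE 0.16, 95% interval -0.74 to -0.05, adjusted p = 1 by edgeR) at 24 h and -0.51 (SE 0.16, interval -0.86 to -0.17, adjusted p = 0.236 by edgeR) at 72 h. At 72 h the adjusted p was 0.0733 by DESeq2 and 0.165 by limma-voom. With each pair of libraries from 1 experiment and time point as a replicate block, edgeR called *Foxh1* at 72 h (log2 difference -0.53, adjusted p = 0.0280), as it did 3.73% of all genes, and with only the 2 groups of 72 h in the fit it was called too (-0.52, adjusted p = 0.0397), as were 1.78% of the genes tested there. Without experiment 1 the differences were -0.53 at 24 h and -0.46 at 72 h. Leaving out single libraries gave -0.54 to -0.24 at 24 h and -0.73 to -0.43 at 72 h, with no call by edgeR. The 72 h effect of the siRNA was not distinguishable from that at 24 h (difference -0.12, SE 0.22, adjusted p = 1 by edgeR). Between the time points *Foxh1* differed by -0.09 (SE 0.16) in Gl2-KD and -0.21 (SE 0.16) in Srrm2-KD, with the experiments going in different directions.

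The share of the variation that goes with each factor separates *Foxh1* from the other genes. Of the sum of squares of its log2 CPM over the 12 libraries, 57.8% went with the siRNA, against a median of 3.17% over all genes tested, and 8.42% went with the experiment, against a median of 53.6%. A further 20.9% lay in differences between experiments in how the level of *Foxh1* changed with time, against a median of 9.42%. For the other 8 genes the siRNA share was 0.0157% (*Lefty1*) to 13.7% (*Acvr2b*). The experiment held 92.9% for *Smad2*, 80.6% for *Acvr1b*, 72.5% for *Acvr2b*, 65.8% for *Lefty2*, 63.8% for *Gdf3*, 57.6% for *Lefty1* and 47.1% for *Nodal*. For *Tdgf1* it held 5.10%, and the largest part (40.02%) lay in differences between experiments in how the level changed with time.

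**Figure D3:**
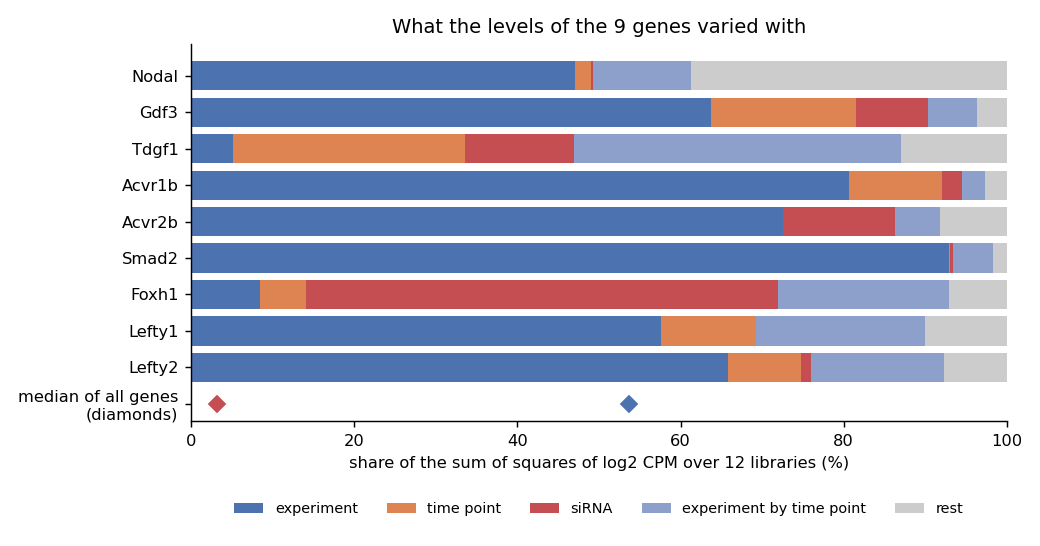
Share of the sum of squares of log2 CPM over the 12 libraries (x axis, %) that went with the experiment, the time point, the siRNA, the experiment by time point, and the rest, for each of the 9 genes (y axis). The diamonds give the median over all genes tested for the experiment (53.6%) and the siRNA (3.17%), and *Foxh1* is the bar with the widest siRNA segment (57.8%).

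*Lefty1* and *Lefty2* encode closely related secreted inhibitors of Nodal, and since the authors assigned reads to transcripts by short words, the sequences they share bear on their counts. The genes lie on the same strand of chromosome 1 in GRCm38, *Lefty2* at chr1:180893108-180899103 and *Lefty1* at chr1:180935022-180938400, 35918 bases apart, each with 4 exons. In GENCODE M21 their main coding sequences both run for 1107 bases (368 codons and a stop) and line up without gaps, with 90 differing bases (91.9% identity). Of the 31-base words of all their transcripts, 443 of 1726 in *Lefty1* (25.7%) also occur in *Lefty2*, and 469 of 2579 in *Lefty2* (18.2%) occur in another gene, 443 of them in *Lefty1*.

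The 60-base coding window with the most differences, 18, lies in exon 1 (coding positions 34 to 93), at chr1:180935143-180935202 in *Lefty1* and at chr1:180893217-180893276 in *Lefty2*. It is shown because reads from such windows are the ones that separate the genes, and capitals mark the bases that differ:
Lefty1: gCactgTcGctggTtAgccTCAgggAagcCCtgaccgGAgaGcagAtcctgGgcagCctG
Lefty2: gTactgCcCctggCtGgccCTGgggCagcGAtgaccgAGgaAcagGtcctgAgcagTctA

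For *Foxh1* and *Acvr2b* 0 words were shared with another gene, for *Nodal*, *Acvr1b* and *Smad2* 0.15% to 0.29% and for *Gdf3* 2.93%.

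*Lefty1* in experiments 1, 2 and 3 had 33.0, 42.9 and 155 CPM in Gl2-KD and 40.7, 52.4 and 129.8 CPM in Srrm2-KD at 24 h. At 72 h it had 70.4, 139 and 82.4 CPM in Gl2-KD and 44.1, 109 and 146 CPM in Srrm2-KD. In experiments 1 and 2 every 72 h library was above its 24 h partner, while Gl2-KD of experiment 3 had the highest *Lefty1* level of all 12 at 24 h and a lower one at 72 h. The log2 difference over time was 0.69 (SE 0.38, 95% interval -0.14 to 1.52, adjusted p = 0.396 by edgeR) in Gl2-KD and 0.44 (SE 0.37, adjusted p = 0.598) in Srrm2-KD. In Gl2-KD it was 0.33 to 1.20 with single libraries left out, 0.15 without experiment 2 (adjusted p = 0.969) and 1.39 without experiment 3 (adjusted p = 0.0532). Between the siRNAs it was 0.06 (SE 0.37) at 24 h and -0.20 (SE 0.37) at 72 h, where experiments 1 and 2 were lower in Srrm2-KD (-0.68 and -0.36) and experiment 3 was higher (0.82).

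*Lefty2* varied most of the 9 genes, by 8.73-fold over the 12 libraries. In experiments 1, 2 and 3 it had 36.9, 94.7 and 156 CPM in Gl2-KD and 32.5, 88.9 and 133 CPM in Srrm2-KD at 24 h. Its 72 h values were 82.3, 284 and 82.4 CPM in Gl2-KD and 40.4, 204 and 137 CPM in Srrm2-KD. The order of the experiments differed between the time points, experiment 3 being highest at 24 h and experiment 2 at 72 h. For each Lefty gene 5 of 6 pairs were higher at 72 h. All 6 pairs were higher at 72 h for 8.92% of all genes, and the share with 5 of 6 was not counted. The log2 difference of *Lefty2* over time was 0.73 (SE 0.39, adjusted p = 0.393 by edgeR) in Gl2-KD and 0.51 (SE 0.39, adjusted p = 0.561) in Srrm2-KD. The value in Gl2-KD depended on which experiments were in the fit, being 0.25 without experiment 2 (adjusted p = 0.945 by edgeR), 0.45 without experiment 1 (adjusted p = 0.708) and 1.36 without experiment 3, where it was called (adjusted p = 0.0479). With single libraries left out it was 0.41 to 1.25, not called. Between the siRNAs it was -0.18 (SE 0.38) at 24 h and -0.40 (SE 0.39, adjusted p = 0.705 by edgeR) at 72 h. *Lefty2* was lower in Srrm2-KD in 5 of 6 pairs, and all 6 pairs were lower for 7.25% of all genes. The 72 h value was -0.89 to -0.07 with single libraries left out and -0.72 to -0.05 with single experiments left out.

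The balance between the 2 Lefty genes went with the experiment. The ratio of *Lefty1* to *Lefty2* counts was 0.453 to 0.589 in the 4 libraries of experiment 2, and 0.856 to 1.25 in those of experiment 1 and 0.975 to 1.06 in those of experiment 3. The ratios of experiment 2 did not overlap with the others, while those of experiments 1 and 3 did, and in experiment 2 both siRNAs and both time points were on the low side. Over the 12 libraries the log2 CPM of both genes had a Pearson correlation of 0.857, a description across libraries that share experiments and across genes that share reads. Because the division of reads between them is uncertain, their counts were also added. The sum ranged from 69.9 CPM (Gl2-KD, 24 h, experiment 1) to 423 CPM (Gl2-KD, 72 h, experiment 2), and its log2 differences were -0.07 (SE 0.37) and -0.31 (SE 0.37) between the siRNAs at 24 h and 72 h and 0.71 (SE 0.38) and 0.48 (SE 0.37) over time in Gl2-KD and Srrm2-KD, none called by edgeR. Over the same libraries *Nodal* ranged from 35.1 to 56.4 CPM.

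**Figure D4:**
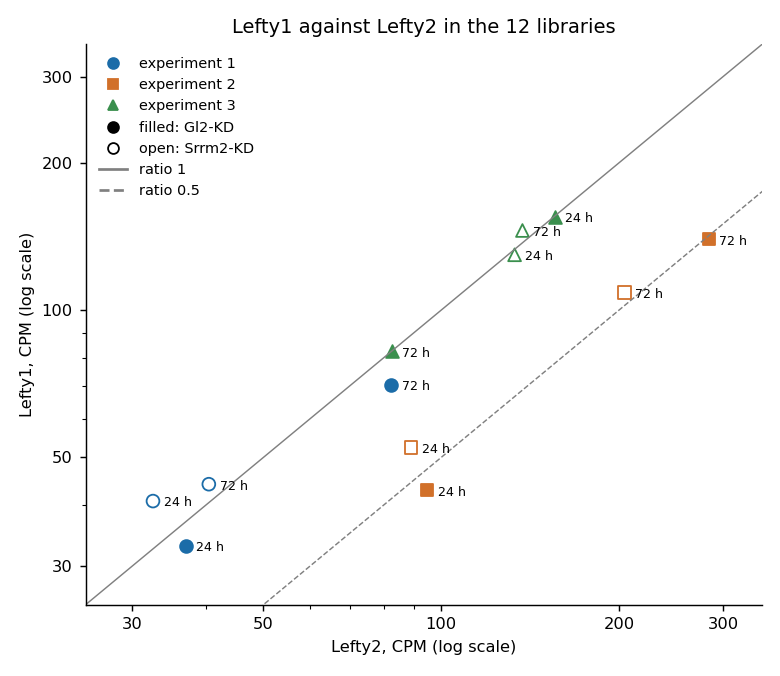
*Lefty1* (y axis) against *Lefty2* (x axis), both in CPM on log scales, in the 12 libraries. Colours and shapes mark the experiment, filled symbols Gl2-KD and open symbols Srrm2-KD, with the time point beside each, and grey lines mark ratios of 1 and 0.5. The 4 libraries of experiment 2 lie near the lower line (ratios 0.453 to 0.589) and the other 8 near the upper one (0.856 to 1.25).

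Other genes of the Nodal and activin pathway were taken from a list of 46, of which 45 were in the table and 40 could be tested. By edgeR's quasi-likelihood test, 0 of the 40 were called between the siRNAs at 24 h, at 72 h or in the difference of both, and 0 in Gl2-KD over time. In Srrm2-KD over time 1 of 40 was called (0.551% of all genes), *Fstl1*, which was lower at 72 h. DESeq2 and limma-voom each called 1 of 40 over time in Gl2-KD and in Srrm2-KD, *Fstl1* each time, and 0 in the other comparisons. The shares given above were 8.16% and 6.62% of the genes to which DESeq2 gave an adjusted p. For limma-voom they were 2.48% and 1.33% of all genes. *Fstl1* encodes a secreted follistatin-like glycoprotein. Its level in experiments 1, 2 and 3 of Srrm2-KD was 103, 75.0 and 56.4 CPM at 24 h and 52.3, 42.4 and 39.96 CPM at 72 h. The log2 difference was -0.77 (SE 0.12, adjusted p = 0.0400 by edgeR), and in Gl2-KD it was -0.53 (SE 0.12, adjusted p = 0.0616), with levels of 109, 77.8 and 64.6 CPM at 24 h and 61.0, 54.9 and 54.0 CPM at 72 h. Without single libraries the call in Srrm2-KD was kept in 3 of 12 fits, those without Gl2-KD at 72 h of experiment 1 or 3 or Srrm2-KD at 24 h of experiment 3, and lost without each of the other 9 libraries, with log2 values of -0.90 to -0.69 and adjusted p of 0.0296 to 0.222 over the 12. By edgeR the value was -0.67 without experiment 1 (adjusted p = 0.0616), -0.78 without experiment 2 (adjusted p = 0.745) and -0.90 without experiment 3 (adjusted p = 0.0346). With only the 2 groups compared it was -0.77 (adjusted p = 0.221), and without the replicate block *Fstl1* was not called either.

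At an unadjusted p below 0.05 by edgeR, the list had 1 of 40 genes at 24 h and 5 of 40 at 72 h between the siRNAs, and 4 of 40 in Gl2-KD and 5 of 40 in Srrm2-KD over time, beside 2.62%, 12.9%, 16.8% and 16.3% of all genes. At 24 h 30 of 40 genes had values below 0 in Srrm2-KD, beside 48.7% of all genes (median -0.08, against 0.01 over all genes). At 72 h 28 of 40 did, beside 52.1% of all genes (median -0.14, against -0.02). Over time the medians were 0.06 and -0.03. At 72 h 7 of 8 genes of ligands and ligand processing, 10 of 13 SMADs and SMAD regulators, 3 of 5 receptors and co-receptors, 2 of 2 extracellular inhibitors and 6 of 12 target genes had values below 0 in Srrm2-KD. The genes with the smallest p there by edgeR were *Ski*, *Smad3* and *Fstl1*. *Ski* encodes a repressor of SMADs (-0.35, SE 0.10, adjusted p = 0.203). *Smad3* encodes a SMAD that the receptors phosphorylate, like *Smad2* (-0.34, SE 0.11, adjusted p = 0.265 by edgeR). *Fstl1* stood at -0.35 (SE 0.12, adjusted p = 0.285 by edgeR). *Smad3* had 16.6, 14.2 and 17.1 CPM in Gl2-KD and 13.8, 10.9 and 13.3 CPM in Srrm2-KD at 72 h. The same 3 genes had the smallest p for the difference between 72 h and 24 h, with log2 values of -0.20 to -0.27 and adjusted p of 1.

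At 24 h the genes with the smallest p included *Inha*, the inhibin alpha gene (-1.24, SE 0.56), and *Fgf8*, a growth factor gene (-0.71, SE 0.39), both with an adjusted p of 1 by edgeR and levels of 0.0986 to 0.721 CPM in the 6 libraries compared. In Gl2-KD over time, after *Fstl1*, they were *Inhbb*, an activin subunit gene (-1.05, SE 0.44, adjusted p = 0.253), and *Bambi*, which encodes a pseudoreceptor (-0.33, SE 0.14, adjusted p = 0.269). *Inhbb* had 32.8, 15.1 and 3.21 CPM at 24 h and 24.98, 4.21 and 1.93 CPM at 72 h in experiments 1, 2 and 3, a spread between experiments larger than the difference over time.

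**Figure D5:**
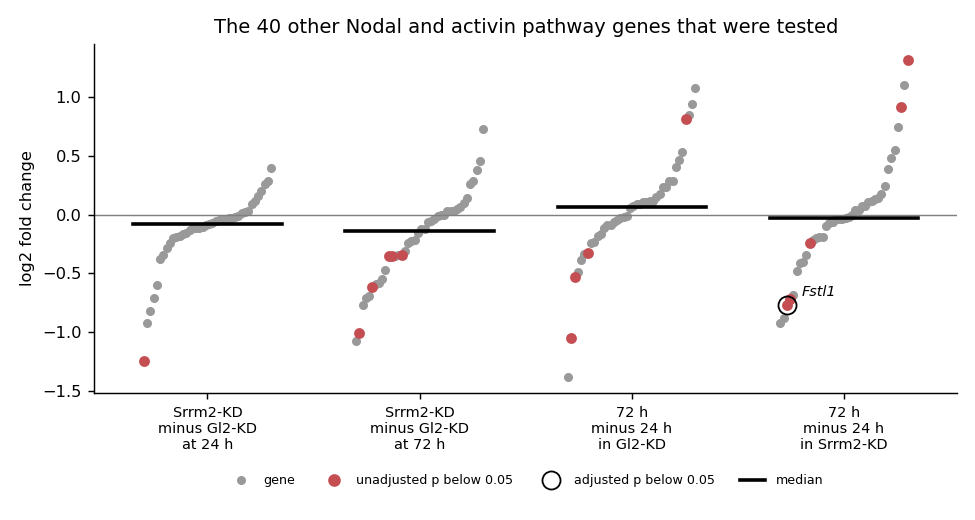
Log2 fold change (y axis) of the 40 other pathway genes in the 4 comparisons (x axis), each ordered from low to high. Red points have an unadjusted p below 0.05, the circle marks *Fstl1* (adjusted p = 0.0400), and black bars are medians. Between the siRNAs 30 of 40 points lie below 0 at 24 h and 28 of 40 at 72 h, beside 48.7% and 52.1% of all genes.

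For each of the 9 genes the 3 tested genes with the most similar log2 CPM over the 12 libraries were found by Pearson correlation, as a description over libraries that share 3 experiments. *Smad2* was most like *Rps6kb1* (0.995), *Gcc2* and *Tgs1*, *Acvr1b* like *Cpt1a* (0.989), *Sbf2* and *R3hdm1*, *Gdf3* like *Rraga* (0.961), *Cr1l* and *Ints14*, and *Acvr2b* like *Dcaf8* (0.955), *Slc45a4* and *Npcd*. *Foxh1* was most like *Fam89b* (0.960), *C1ql1* and *Tmprss5*, which lay at means of 5.83, 2.33 and 3.82 CPM. *Tdgf1* was most like *Gstcd* (0.939), *Cep44* and *Oxsm*, and *Nodal* like *Ankrd49* (0.944), *Gm38147* and *Gm37137*. *Gm38147* and *Gm37137* lay near the floor, at means of 0.0691 and 0.0928 CPM, as did *Npcd* at 0.184 CPM. Few counts stand behind the correlations of these genes. *Lefty1* was most like *Paics* (0.946), *Cxcl12* and *Atp6v1c1*, and *Lefty2* like *Gm23639* (0.954), *Exosc8* and *Fbxo22*. No gene of the 9 was among the 3 nearest of another, and *Lefty1* and *Lefty2*, with 0.857, had the highest correlation among the 9.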

How the data were processed

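PolyA+ RNA of 12 libraries was analysed. The authors made the deposited estimated counts by pseudo-aligning 100-bp paired-end reads to GENCODE M24 (mm10) with Kallisto 0.46.1 and did not normalise them; 33.9% to 43.1% of a library's values are not whole numbers. Here they were rounded and scaled by TMM, and the 19410 genes that filterByExpr kept (min.count 10, min.total.count 15, on the 4 groups) were fitted in R 4.3.3 with edgeR 4.0.16 (glmQLFit with legacy=TRUE, glmQLFTest). The fit held all libraries, with group and experiment terms, the experiment being a block. Calls are at an adjusted p below 0.05 (Benjamini-Hochberg, all 19410 genes). The block stands in for the RNA processing day of the authors' model, which is not given per library. With group means removed, the 18 pairs of libraries with the same experiment number had correlations across genes of 0.281 to 0.747 and the 36 pairs with different numbers -0.628 to 0.231. The common biological coefficient of variation was 0.22. P-values measure how the group differences vary between 3 experiments on 1 line, after the level of each experiment is taken out. No 2 libraries of a group agreed within sampling noise (chi-square per degree of freedom of at least 97.7).

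The genes and lists were chosen with earlier results of these data known. Named are the 9 genes, of the other pathway genes those called or else the 3 with the smallest p in a comparison, the cell type markers, *Srrm2*, and the 3 genes most correlated with each of the 9. Lengths, positions and sequences came from GENCODE M21 (GRCm38). Alternatives were DESeq2 1.42.0, limma 3.58.1 with voom, other scalings, filters, blocks and quasi-likelihood settings, unrounded counts, and fits without each library or experiment. Fits were tested on simulated counts that had no differences between experiments and a smaller spread than these data. Their outcome therefore does not show how the fits perform here. The authors' transcript-level estimates were not used here. A gene that the naming rule selects and a sequence are not reported here.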

Additional observations from a re-analysis of the deposited data

How the results depend on the processing

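With 3 libraries a group, the SE of the 9 genes' differences between the siRNAs or the times was 0.096 to 0.39. The count of the 9 genes called was 0 under every alternative run for the siRNA at 24 h, for time in Srrm2-KD and for the difference between the siRNA effects. For time in Gl2-KD it was 1 with DESeq2 (*Acvr1b*) and 0 to 1 when libraries or experiments were left out (*Acvr1b* without Gl2-KD at 72 h of experiment 1, *Lefty2* without experiment 3). For the siRNA at 72 h it was 1 (*Foxh1*) with each pair of libraries from 1 experiment and time point as a replicate block and 1 with only the 2 groups compared. Of the other pathway genes, the same 2 settings called 2 (*Fstl1* and *Otx2*) and 1 (*Otx2*) at 72 h, beside 3.73% and 1.78% of all genes. *Otx2* was named after its values were seen. For time in Gl2-KD, DESeq2, limma-voom, legacy=FALSE, no filter and at least 10 counts in every library each called 1 (*Fstl1*). They called 1.44% to 8.16% of the genes to which they gave an adjusted p. Fits with libraries left out called 0 to 1 of the pathway genes. For time in Srrm2-KD the count was 0 with only the 2 groups compared and 0 to 2 with libraries or experiments left out. Without the replicate block it was 0, and the values of *Lefty1* between the siRNAs were -0.052 at 24 h and 0.028 at 72 h. Over all genes the edgeR fit without the block called 0 in every comparison, so the edgeR calls in the time comparisons rest on the block. DESeq2 and limma-voom were not run without the block. With libraries or experiments left out, 0 to 387 of all genes were called over time in Gl2-KD and 0 to 135 in Srrm2-KD, with 0 in both without experiment 2.

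Of the 36 values of the 9 genes between the siRNAs or over time, 15 turned sign in a fit with a library or experiment left out, 18 kept their sign but moved by over 1.5 times, and 3 stayed within that (*Foxh1* between the siRNAs at 72 h and *Acvr1b* over time with either siRNA). *Smad2* over time in Gl2-KD was -0.0099 with RLE factors, -0.028 with library totals, -0.0098 with DESeq2 and -0.0026 with a stricter filter of 10 counts in each library, and *Smad2* at 24 h was 0.0048 without the filter. *Lefty1* at 24 h was -0.074 with *Lefty2* added, an alternative chosen after seeing the data, as was *Tdgf1* with its pseudogene. With libraries or experiments left out, the values between the siRNAs at 24 h ranged from -0.075 to 0.033 for *Nodal*, -0.021 to 0.26 for *Tdgf1* (0.13 with all libraries), -0.11 to 0.075 for *Smad2*, -0.23 to 0.55 for *Lefty1* and -0.53 to 0.21 for *Lefty2* (-0.18), and at 72 h from -0.15 to 0.20 for *Nodal* and -0.65 to 0.19 for *Lefty1* (-0.20). Over time they ranged in Gl2-KD from -0.18 to 0.090 for *Nodal*, -0.014 to 0.34 for *Tdgf1* (0.21), -0.22 to 0.33 for *Acvr2b*, -0.052 to 0.095 for *Smad2* and -0.21 to 0.024 for *Foxh1*, and in Srrm2-KD from -0.10 to 0.093 for *Nodal*, -0.26 to 0.30 for *Acvr2b* and -0.15 to 0.040 for *Smad2*. The cause was not tested. Per kilobase of the longest transcript the mean of *Tdgf1* was 410.3 CPM.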
